A study of Mus musculus with 20 samples.

Results

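The cytosolic nucleic acid sensors were followed as a group of 9 genes. They were chosen by name for their known roles, but with earlier results of these data known. They were the RNA receptors *Ddx58*, *Ifih1* and *Dhx58*, the adaptor *Mavs*, the DNA sensor *Cgas* and its adaptor *Tmem173*, the sensors *Zbp1* and *Aim2*, and the exonuclease *Trex1*. The count table listed 55487 genes, of which 12799 passed the filter on low counts and were tested, and all 9 sensor genes were among them. The data were RNA sequencing counts from BV-2 cells, a microglial line established from brain cultures of C57BL/6 mice, in 20 libraries that fell into 4 groups of 5. Young BV-2 microglia were low-passage cells, and aged BV-2 microglia were the same line after long-term cultivation, frozen and thawed together with the young cells. Each kind was left untreated or received 100 ng/ml LPS, a bacterial cell wall component, for 6 h, so the groups were young untreated, aged untreated, young LPS and aged LPS. All libraries came from a single immortalized cell line of wild-type background, so the replicates were cultures and not animals. The p-values therefore measured the spread between cultures. The study does not state whether the aged replicates came from separate long-term cultivations or from frozen aliquots of the same one. The spread between such cultivations may therefore not be included.

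Cells detect RNA and DNA in the cytosol as a sign of infection or of damage. RIG-I, the product of *Ddx58*, and MDA5, the product of *Ifih1*, bind double-stranded RNA and signal through MAVS on mitochondria, while LGP2, the product of *Dhx58*, lacks the signalling domains of its relatives and modulates them. cGAS makes a cyclic dinucleotide on binding DNA, which activates STING, the product of *Tmem173*, and both adaptors lead to kinases and transcription factors that induce type I interferon, which in turn raises the expression of many sensor genes. In microglia this system is known for its part in antiviral defence and in interferon-driven inflammation.

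The libraries held between 11371508 and 16829292 counts, 0.517% to 1.3% of which fell on mitochondrial genes. Levels are given as CPM, the counts of a gene per 1000000 counts of its library after scaling by the trimmed mean of M values. All 10 macrophage and microglia markers had reads, with *Cd68* between 753 and 1409 CPM and *Csf1r* between 562 and 998 CPM, although *Cx3cr1* and *P2ry12* did not exceed 1.73 and 1.87 CPM. The summed levels of 5 astrocyte, 5 oligodendrocyte, 5 neuron and 5 fibroblast markers did not exceed 1.25, 1.78, 0.511 and 0.129 CPM in any library, and *Aqp4*, *Gja1*, *Mog*, *Snap25*, *Col1a2* and *Dcn* had no reads. Replicate 3 of the aged LPS group stood apart for several sensor genes, and its values are given beside the results they touch. In bulk RNA, fewer cells expressing a gene and less RNA per cell cannot be told apart.

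The promoter windows of the RNA receptors were read first, because *Ddx58* and *Ifih1* were both induced by LPS and yet differed in the aged cells. The windows span 250 bases before to 50 bases after the annotated start and come from RefSeq on GRCm38.p6. That of *Ddx58* lies at chr4:40239776-40240075 and that of *Ifih1* at chr2:62646206-62646505, both on the minus strand, and both are written 5′ to 3′ along the gene. Capitals mark matches to GAAANNGAAA, the core of the interferon-stimulated response element, searched on both strands.
Ddx58: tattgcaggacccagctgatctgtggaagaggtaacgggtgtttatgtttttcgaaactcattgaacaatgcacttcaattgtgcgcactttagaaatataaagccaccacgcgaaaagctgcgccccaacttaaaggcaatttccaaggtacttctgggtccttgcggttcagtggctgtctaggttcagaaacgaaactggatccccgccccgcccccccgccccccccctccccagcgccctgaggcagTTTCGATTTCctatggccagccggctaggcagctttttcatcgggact
Ifih1: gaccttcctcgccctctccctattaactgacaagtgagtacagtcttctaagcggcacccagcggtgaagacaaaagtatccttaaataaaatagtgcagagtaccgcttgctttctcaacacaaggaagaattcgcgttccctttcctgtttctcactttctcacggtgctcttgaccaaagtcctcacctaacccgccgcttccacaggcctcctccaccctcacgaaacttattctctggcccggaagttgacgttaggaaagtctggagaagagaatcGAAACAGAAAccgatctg
The match of *Ddx58* began at base 3 of the transcript and lay on the opposite strand, and the match of *Ifih1* began at base 33 and lay on the same strand as the gene. Of the 6 sensor genes whose windows were searched (*Ddx58*, *Ifih1*, *Mavs*, *Cgas*, *Aim2* and *Trex1*, the last with windows for more than 1 start), these were the only 2 with a match. *Dhx58*, *Zbp1* and *Tmem173* were not searched. The motif was found in 3.44% of all 32851 windows, and 3.99% of the 27025 genes had a window with it. A match is a description of the letters and no evidence of binding.

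The RNA receptors had few reads in untreated cells, and *Ddx58* was lower in the aged ones. *Ddx58* (ENSMUSG00000040296, chromosome 4, 40203773 to 40239828, minus strand) held 2.69, 1.21, 2.11, 1.52 and 1.26 CPM in young untreated replicates 1 to 5. In aged untreated replicates 1 to 5 it held 0.905, 0.673, 0.4, 0.769 and 0.333 CPM. Each aged library lay below each young library, and young replicates 1 and 3 were the highest. The difference was -1.50 (SE 0.46) on the log2 scale, a 2.82-fold lower level, with an adjusted p of 0.0353 (edgeR's quasi-likelihood test with Benjamini-Hochberg adjustment over all tested genes, used for every adjusted p unless another tool is named). *Ddx58* was lower in the aged library in each of the 5 sets of same-numbered libraries. These sets, here taken as batches, each held 1 library of every group.

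*Ifih1* (ENSMUSG00000026896, chromosome 2, 62595798 to 62646255, minus strand) was close to the limit of detection without LPS. It had 0, 3, 2, 5 and 2 reads in young untreated replicates 1 to 5 and no read in any of the 5 aged untreated libraries. Young replicate 1 also had none, so the groups touched at 0. Against a floor of 3 reads over the group, the aged level was at least 4.22-fold lower, and edgeR gave an adjusted p of 0.0275. *Ifih1* passed the filter on low counts through the young LPS libraries, and with the untreated libraries alone it missed the filter and was not tested. A floor of 3 reads in a library corresponded to 0.165 to 0.296 CPM, and floors cover counting error only.

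*Dhx58* (ENSMUSG00000017830, chromosome 11, 100694884 to 100704271, minus strand) had values of 3.72, 2.24, 3.44, 1.45 and 1.86 CPM in young untreated replicates 1 to 5. The aged untreated replicates had 1.55, 1.28, 0.799, 0.824 and 1.33 CPM. Young replicates 1 and 3 were again the highest, and the groups overlapped through young replicate 4. The difference of -1.16 (SE 0.38) did not pass the test (edgeR, adjusted p = 0.0545), but it did with the batch as a block (-1.14, edgeR, adjusted p = 0.0183) and with DESeq2 (-1.14, adjusted p = 0.00398), and the aged library was lower in 5 of 5 batches.

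In the comparison of aged with young untreated cells, 2 of 9 sensor genes fell, *Ddx58* and *Ifih1*, and none rose, where 7.81% of all tested genes fell and 3.71% rose. *Ifih1* and *Zbp1* were tested here because of their reads under LPS. With the untreated libraries fitted alone neither was tested, and 3 sensor genes fell, *Ddx58*, *Dhx58* and *Trex1*. For 2 sensor genes, *Ddx58* and *Trex1*, the aged group lay wholly below the young group, as it did for 6.63% of all tested genes. The median difference of the 9 genes was -0.40, or -0.30 with *Ifih1* at its bound and *Zbp1*, which has no fold, left out, against -0.01 over all tested genes. The call of *Ddx58* was lost on leaving out young untreated replicate 1 or 3, aged untreated replicate 2, 3, 4 or 5, or replicate 1, 2, 4 or 5 of all groups (edgeR, adjusted p from 0.0576 to 0.109). The call of *Ifih1* was lost on leaving out young or aged untreated replicate 2 or 4, or replicate 2, 4 or 5 of all groups (edgeR, adjusted p from 0.0513 to 0.12). Without aged LPS replicate 3, which enters this comparison through the shared estimate of spread, *Dhx58* (edgeR, adjusted p = 0.0108) and *Tmem173* (edgeR, adjusted p = 0.0433) were also called and 4 sensor genes fell.

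Under LPS the RNA receptors rose strongly in young cells. *Ddx58* reached 158, 148, 119.6, 103 and 118 CPM in young LPS replicates 1 to 5, a log2 difference of 6.19 (SE 0.24) and a 73.2-fold rise (edgeR, adjusted p = 7.69e-16). In aged LPS replicates 1 to 5 it reached 48.4, 40.2, 80.5, 46.8 and 36.7 CPM, a rise of 6.34 (SE 0.28) over the aged untreated cells, or 81.0-fold (edgeR, adjusted p = 1.86e-14). All LPS libraries lay far above the untreated ones, and aged replicate 3 was the highest aged library while still below each young LPS library. Aged cells under LPS thus held 2.55-fold less *Ddx58* than young cells under LPS, a difference of -1.35 (SE 0.16, edgeR, adjusted p = 2.89e-06), but the rise itself did not differ detectably between them, at 0.15 with a 95% interval from -0.82 to 1.11 (edgeR, adjusted p = 0.922).

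*Dhx58* followed the same course. It reached 135, 131, 115, 83.0 and 102 CPM in young LPS replicates 1 to 5 and 43.7, 38.4, 75.9, 39.0 and 38.8 CPM in aged LPS replicates 1 to 5. The groups did not overlap, although aged replicate 3 came close to young replicate 4. The rise was 5.47 (SE 0.24) in young and 5.36 (SE 0.27) in aged cells (edgeR, adjusted p = 5.24e-15 and 1.32e-13), and the aged level under LPS was 2.39-fold lower, at -1.26 (SE 0.17, edgeR, adjusted p = 1.15e-05). The difference between the rises was -0.10, with a 95% interval from -1.06 to 0.85 (edgeR, adjusted p = 0.951).

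*Ifih1* departed from its relatives. In young LPS replicates 1 to 5 it had 177, 184, 145, 156 and 201 reads, or 17.5, 15.3, 10.0, 11.6 and 14.8 CPM. In aged LPS replicates 1 to 5 it had 7, 2, 11, 5 and 4 reads, or 0.492, 0.165, 0.759, 0.387 and 0.289 CPM. The highest aged library, replicate 3, lay far below the lowest young library, also replicate 3, and the aged LPS range overlapped with that of the young untreated libraries, which ended at 0.33 CPM. The aged level under LPS was 31.6-fold lower, a difference of -4.98 (SE 0.28, edgeR, adjusted p = 8.72e-10), and summed reads of 863 and 29 gave the same ratio with a 95% counting interval from 21.8 to 47.5. Among the 12799 tested genes its fitted difference had rank 2 from the lowest. The direction was fixed in advance, because *Ifih1* passed the filter on low counts only through the young LPS libraries. The aged library was lower in 5 of 5 batches, by 3.50 to 5.67 on the log2 CPM scale.

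LPS still raised *Ifih1* in aged cells, from no reads to 29 over 5 libraries, at least 11.6-fold (edgeR, adjusted p = 9.31e-05), against 86.9-fold by summed reads in young cells with a 95% counting interval from 49.5 to 169 (edgeR, adjusted p = 2.21e-12). The test in aged cells was possible only through the young LPS libraries, because with the aged libraries alone *Ifih1* missed the filter. The difference between the rises could not be resolved, because the aged untreated cells had no reads to start from (edgeR, adjusted p = 0.767, with a 95% interval from -2.77 to 1.31 that depends on the small count added in fitting). Relative to *Ddx58* in the same library, *Ifih1* reads amounted to 8.36% to 12.5% in young LPS and 0.411% to 1.02% in aged LPS libraries. The log2 ratio was lower by 3.65 in aged cells against *Ddx58*, by 3.75 against *Dhx58*, by 3.72 against *Zbp1* and by 3.83 against *Trex1*. Each of these 4 ratios, chosen after the values were seen, gave p = 0.00794 in an exact two-sided permutation test over 5 and 5 libraries. That is the smallest p that free exchange of 5 and 5 libraries allows, and it was 0.00794 after Benjamini-Hochberg adjustment. The exchange ignored the batches, and the 4 ratios share the reads of *Ifih1*, so these p-values add no support.

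**Figure D1:**
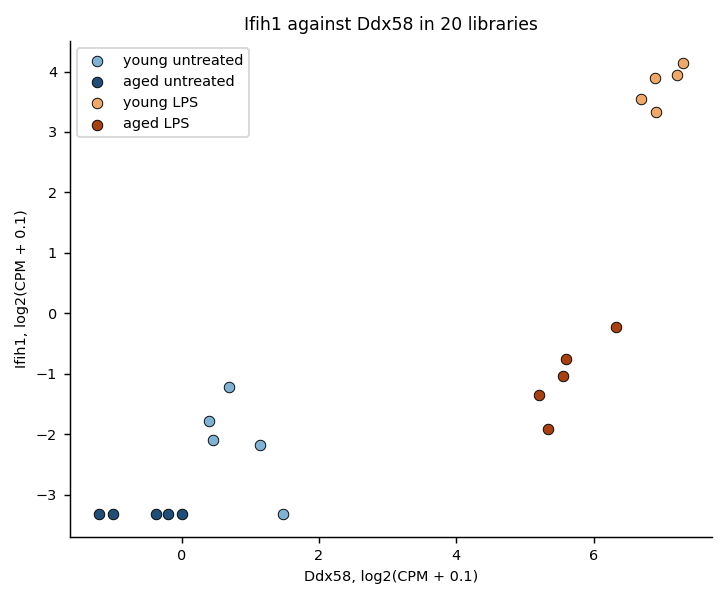
*Ifih1* (vertical) against *Ddx58* (horizontal) in 20 libraries, both as log2 of CPM with 0.1 added, with colours for the 4 groups. The 5 aged LPS libraries lie towards the young LPS libraries along the *Ddx58* axis, at 36.7 to 80.5 CPM, but near the untreated libraries along the *Ifih1* axis, at 0.165 to 0.759 CPM.

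*Mavs* (ENSMUSG00000037523, chromosome 2, 131234063 to 131248025, plus strand), the adaptor of the RNA receptors, went the other way. It held 98.6, 95.1, 97.3, 86.7 and 87.3 CPM in young untreated and 56.7, 60.9, 64.3, 59.3 and 55.5 CPM in young LPS replicates 1 to 5. Aged replicates 1 to 5 held 90.1, 86.5, 86.8, 91.8 and 83.2 CPM untreated and 61.9, 64.2, 70.3, 60.8 and 57.3 CPM under LPS. LPS separated the libraries without overlap in both kinds of cell, while the ranges of young and aged libraries overlapped. *Mavs* fell by 0.65 (SE 0.06) in young and by 0.48 (SE 0.06) in aged cells (edgeR, adjusted p = 1.12e-09 and 2.2e-07). Aged and young cells did not differ detectably, either untreated (-0.08, 95% interval -0.20 to 0.03, edgeR, adjusted p = 0.366) or under LPS (0.08, 95% interval -0.04 to 0.20, edgeR, adjusted p = 0.312). Under LPS the aged library was the higher one in 5 of 5 batches, by 0.0354 to 0.129 on the log2 CPM scale. With library sizes alone as scaling, the difference under LPS was 0.16 and passed the test (edgeR, adjusted p = 0.0319).

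*Cgas* (ENSMUSG00000032344, chromosome 9, 78430526 to 78443237, minus strand), the DNA sensor, rose slightly with LPS and did not depend detectably on culture age. It held 41.0, 52.0, 49.5, 49.98 and 49.7 CPM in young untreated and 47.7, 51.7, 49.8, 52.8 and 49.1 CPM in aged untreated replicates 1 to 5. Under LPS it held 79.3, 67.1, 66.1, 60.2 and 63.2 CPM in young and 55.3, 72.7, 75.4, 69.7 and 59.7 CPM in aged replicates 1 to 5. All LPS libraries exceeded the untreated libraries of the same kind, and replicate 1 was the lowest young untreated, the highest young LPS and the lowest aged LPS library. The rise was 0.47 (SE 0.08) in young and 0.40 (SE 0.08) in aged cells (edgeR, adjusted p = 3.85e-05 and 0.000282). Under LPS, aged and young cells differed by -0.01 with a 95% interval from -0.18 to 0.16 (edgeR, adjusted p = 0.934).

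*Tmem173* (ENSMUSG00000024349, chromosome 18, 35733679 to 35740554, minus strand), which encodes STING, fell with LPS. It held 48.0, 59.1, 59.3, 49.3 and 52.7 CPM in young untreated and 49.7, 45.2, 44.98, 49.3 and 43.0 CPM in aged untreated replicates 1 to 5. Under LPS it held 39.1, 43.6, 42.6, 35.4 and 37.9 CPM in young and 34.6, 33.7, 44.4, 33.8 and 34.7 CPM in aged replicates 1 to 5. The young libraries separated by treatment, whereas aged LPS replicate 3 reached into the aged untreated range. The fall was -0.44 (SE 0.08) in young and -0.36 (SE 0.08) in aged cells (edgeR, adjusted p = 6.79e-05 and 0.000825). Aged cells were at -0.21 (SE 0.08) untreated (edgeR, adjusted p = 0.0946) and at -0.13 (SE 0.08) under LPS (edgeR, adjusted p = 0.267). Without aged LPS replicate 3 the latter became -0.22 and passed (edgeR, adjusted p = 0.0336).

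*Zbp1* (ENSMUSG00000027514, chromosome 2, 173206612 to 173218923, minus strand), a sensor of left-handed nucleic acid helices that can start necroptosis, was switched on by LPS from a level near 0. It had 2, 0, 1, 0 and 0 reads in young untreated replicates 1 to 5 and none in the aged untreated libraries, so no fold is given between them. Under LPS it reached 7.61, 7.22, 7.38, 5.89 and 6.78 CPM in young and 2.53, 1.98, 4.90, 3.17 and 2.03 CPM in aged replicates 1 to 5. The groups did not overlap, and aged replicate 3 was again the highest aged library. The rise in young cells was 178-fold by summed reads, with a 95% counting interval from 60.5 to 866, and that in aged cells was at least 79.9-fold (edgeR, adjusted p = 3.11e-11 and 1.99e-09). The aged level under LPS was 2.37-fold lower, at -1.24 (SE 0.22, edgeR, adjusted p = 0.000328).

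*Aim2* (ENSMUSG00000037860, chromosome 1, 173350879 to 173466040, plus strand), a DNA sensor that assembles an inflammasome, stayed within a narrow range. It held 45.1, 46.9, 48.9, 47.4 and 48.0 CPM in young untreated and 51.4, 46.6, 42.7, 48.7 and 54.5 CPM in aged untreated replicates 1 to 5. Under LPS it held 42.2, 45.3, 36.1, 40.0 and 41.2 CPM in young and 43.9, 37.6, 37.2, 40.4 and 41.9 CPM in aged replicates 1 to 5. All 4 ranges lay between 36.1 and 54.5 CPM, and treated and untreated libraries overlapped in both kinds of cell. It fell by 0.21 (SE 0.07) in young and by 0.28 (SE 0.07) in aged cells (edgeR, adjusted p = 0.00978 and 0.00128). Aged and young cells differed by 0.04 untreated (95% interval -0.09 to 0.18, edgeR, adjusted p = 0.738) and by -0.02 under LPS (95% interval -0.17 to 0.12, edgeR, adjusted p = 0.826).

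*Trex1* (ENSMUSG00000049734, chromosome 9, 109057933 to 109059734, minus strand), which degrades cytosolic DNA and so removes the ligand of cGAS, was induced by LPS in both kinds of cell but less in the aged ones. It held 8.90, 9.14, 10.0, 9.49 and 13.0 CPM in young untreated and 7.89, 7.27, 6.74, 8.19 and 8.39 CPM in aged untreated replicates 1 to 5. Under LPS it held 112, 129, 109, 79.1 and 104 CPM in young and 47.5, 37.4, 60.4, 37.6 and 47.6 CPM in aged replicates 1 to 5. The aged libraries lay below all young libraries in both conditions, narrowly without LPS and by a wide gap with it. Untreated aged cells were at -0.40 (SE 0.16), which did not pass the test (edgeR, adjusted p = 0.115), but passed it when the untreated libraries were fitted alone (-0.38, edgeR, adjusted p = 0.0411).

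*Trex1* rose by 3.40 (SE 0.14) in young cells, or 10.5-fold, and by 2.58 (SE 0.15) in aged cells, or 6.00-fold (edgeR, adjusted p = 2.77e-15 and 8.9e-13). The aged level under LPS was 2.31-fold lower, at -1.21 (SE 0.12, edgeR, adjusted p = 4.36e-07). The rise was smaller in aged cells, with a difference of -0.81 (SE 0.20, edgeR, adjusted p = 0.017), and this was the only sensor gene whose response to LPS differed between young and aged cells in the test. All 1147 exonic bases of *Trex1* lie within exons of *Atrip* on the same strand, and how shared reads were assigned is not given in the sources used here, so the counts of *Trex1*, its folds and its level per kilobase may include reads of *Atrip*. Reads of *Atrip* beyond those of *Trex1* stayed at 16.2 to 19.4, 14.8 to 18.6, 16.9 to 20.7 and 16.6 to 20.9 CPM in young untreated, aged untreated, young LPS and aged LPS libraries, while the counts of *Trex1* moved as described. Leaving out replicate 1 or replicate 2 from all groups ended the call on the response (-0.75 and -0.65, edgeR, adjusted p = 0.0875 and 0.162).

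**Figure D2:**
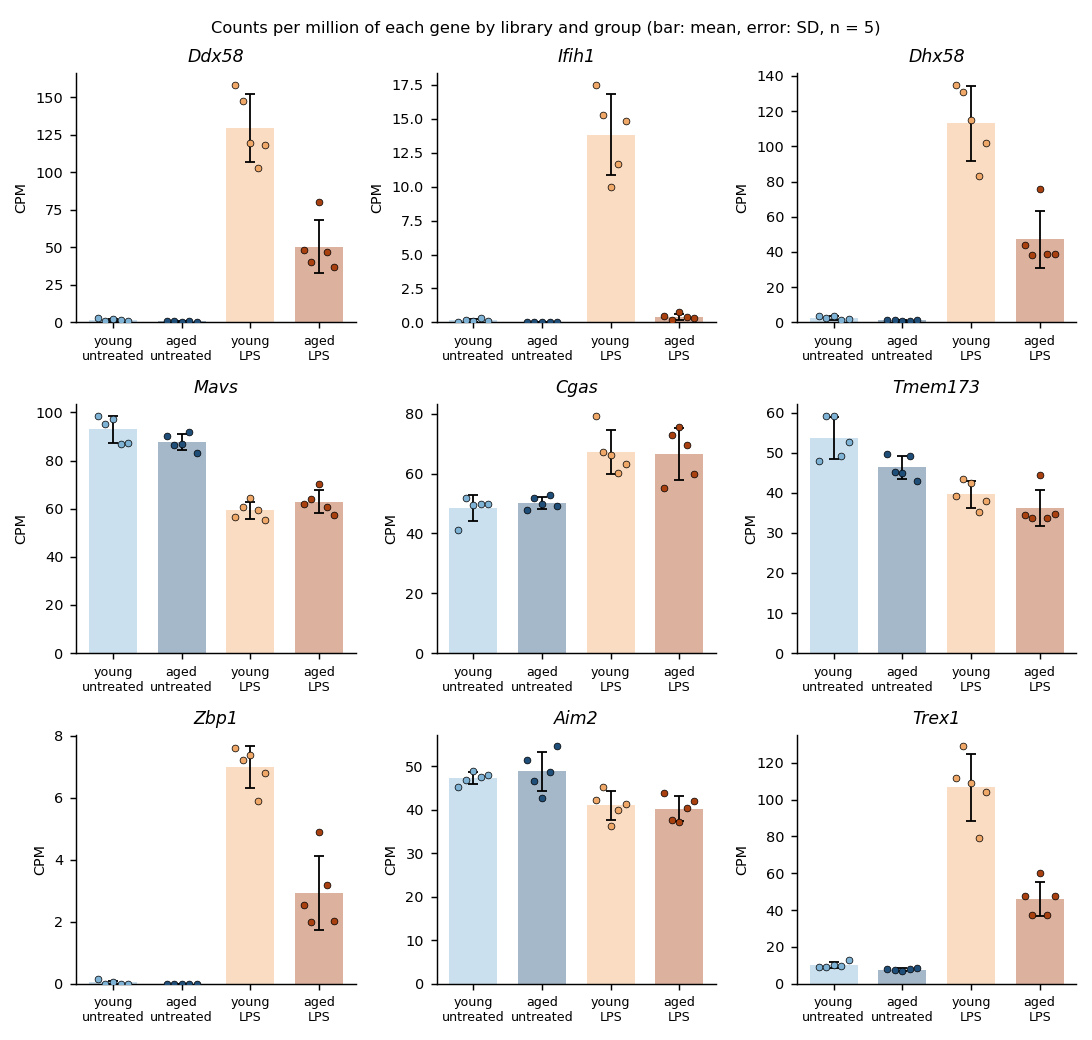
Level of each sensor gene in CPM (vertical, from 0) in the 4 groups. Points are libraries in order of replicate number, bars are means and error bars are SD with 5 libraries per group. *Ddx58*, *Ifih1*, *Dhx58*, *Zbp1* and *Trex1* are low without LPS and lower in aged than in young LPS libraries without overlap, and *Mavs*, *Cgas*, *Tmem173* and *Aim2* stay between 33.7 and 98.6 CPM in all groups.

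Counted over the group, LPS moved all 9 sensor genes in both kinds of cell, 6 up and 3 down. For aged cells this count includes *Ifih1*, which was tested there because of its reads in the young LPS libraries. In young cells *Ifih1* and *Zbp1* passed the filter on low counts through the LPS libraries, and so did *Zbp1* in aged cells. Only a rise could therefore be called for them. With only the aged libraries fitted, *Ifih1* was not tested and 8 sensor genes were called. In young cells 31.2% of all tested genes rose and 33.5% fell, and in aged cells 27.5% rose and 26.9% fell, so a call by itself says little here and the sizes carry the comparison. The median difference of the 9 genes was 3.40 in young and 2.58 in aged cells, against -0.01 and 0.00 over all tested genes. Scaling by library sizes alone moved the median of all genes by -0.22 in young and -0.16 in aged cells and turned the share of calls that were higher from 48.2% to 27.3% and from 50.6% to 28.4%, but the 9 calls and their directions remained, with *Cgas* at 0.25 and 0.24 (edgeR, adjusted p = 0.0114 and 0.014).

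Under LPS, 5 of 9 sensor genes were lower in aged than in young cells and none was higher, where 15% of all tested genes were lower and 14% were higher. These were *Ddx58*, *Ifih1*, *Dhx58*, *Zbp1* and *Trex1*, the same 5 whose aged and young LPS libraries did not overlap, as held for 8.16% of all tested genes in that direction. *Ifih1* passed the filter on low counts only through the young LPS libraries, so only a lower aged level could be called for it. With library sizes alone as scaling, the share of higher genes among all calls went from 48.3% to 70.1%, and the 5 sensor genes were still lower. The median difference of the 9 genes was -1.21, against 0.01 over all tested genes. For the response to LPS, 1 of 9 sensor genes was lower in aged cells, *Trex1*, and none was higher, where 2.27% of all tested genes were lower and 4.12% were higher. The comparisons share libraries, so their values stand side by side and do not support each other.

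**Figure D3:**
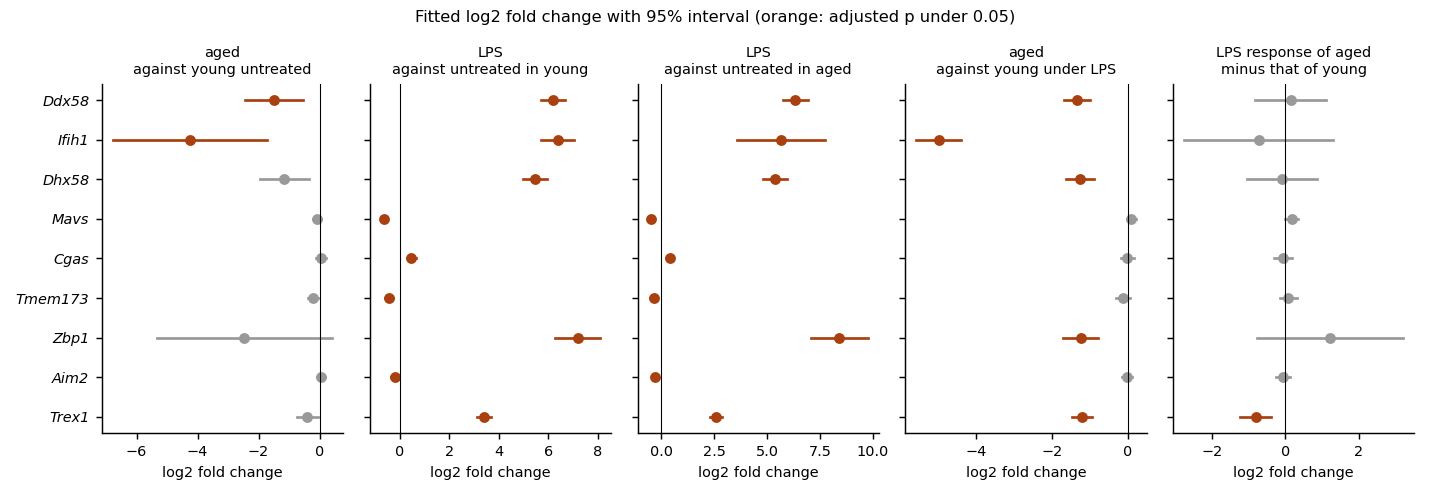
Fitted log2 fold change (horizontal) of the 9 sensor genes in the 5 comparisons, with points for the estimate, lines for the 95% interval and orange for an adjusted p under 0.05; the horizontal scales differ. *Ifih1* stands at -4.98 in aged against young cells under LPS while *Ddx58*, *Dhx58*, *Zbp1* and *Trex1* stand between -1.35 and -1.21, and the values of *Ifih1* and *Zbp1* against untreated groups without reads depend on the small count added in fitting.

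Per kilobase of exon, the adaptors led in untreated cells and *Trex1* led under LPS. In young untreated cells *Mavs* stood at 27.8 ± 1.68 CPM per kb (SD, n = 5), *Tmem173* at 19.6 ± 1.94, *Aim2* at 13.5 ± 0.405, *Cgas* at 11.7 ± 1.04 and *Trex1* at 8.82 ± 1.47 CPM per kb. Only *Cgas* and *Trex1*, and *Ifih1* and *Zbp1* at the bottom, overlapped with their neighbour in this order, and *Dhx58* at 0.777 and *Ddx58* at 0.25 CPM per kb lay between. The order of the upper 7 genes was the same in aged untreated cells, where *Ifih1* and *Zbp1* both had no reads, and where *Aim2* and *Cgas* overlapped and *Cgas* and *Trex1* did not.

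In young LPS cells the order per kilobase was *Trex1* at 93.0 ± 15.7 (SD, n = 5), *Dhx58* at 34.6 ± 6.50, *Ddx58* at 18.3 ± 3.24 and *Mavs* at 17.7 ± 1.04 CPM per kb, and neighbours from *Ddx58* down to *Aim2* overlapped. *Zbp1* at 1.98 ± 0.192 and *Ifih1* at 1.69 ± 0.367 CPM per kb overlapped with each other at the lower end. In aged LPS cells *Trex1* stayed the highest at 40.2 ± 8.24 CPM per kb, *Mavs* came next at 18.8 ± 1.44 CPM per kb, *Ddx58* was seventh at 7.17 ± 2.47 CPM per kb, and *Ifih1* at 0.0512 ± 0.0276 CPM per kb lay below *Zbp1* at 0.828 ± 0.342 CPM per kb without overlap.

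**Figure D4:**
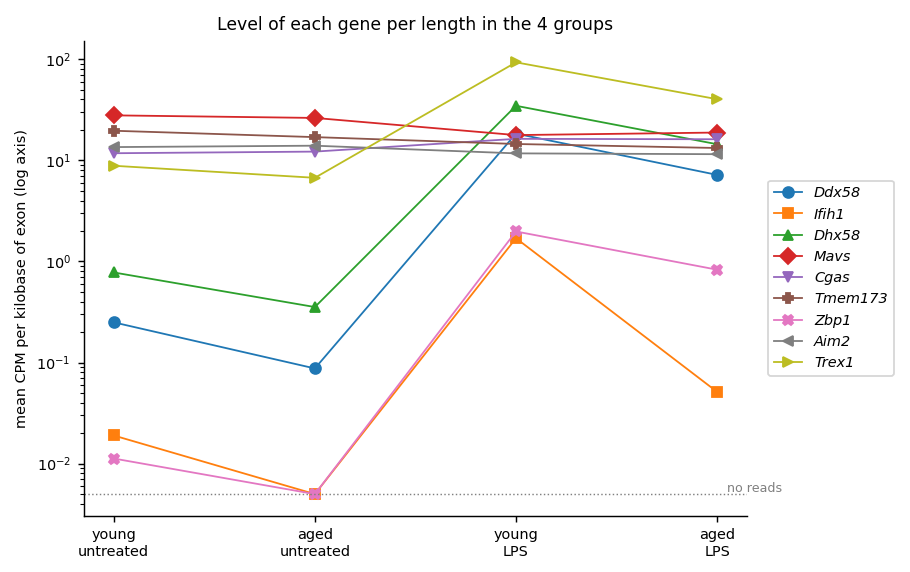
Mean CPM per kilobase of exon (vertical, log axis) of each sensor gene in the 4 groups (horizontal), joined by lines for reading. Genes without reads in a group are drawn on the dotted line. *Trex1* crosses above *Mavs* under LPS, from 8.82 to 93.0 CPM per kb in young cells, and *Ifih1* and *Zbp1*, which lie together at 1.69 and 1.98 CPM per kb in young LPS cells, part in aged LPS cells.

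The genes whose pattern over the 20 libraries was most like that of each sensor gene were sought among 10876 genes, by Pearson's r of log2 CPM, as a description. The libraries share their treatment groups, which sets most of r. *Parp14* was nearest to *Ddx58* and to *Dhx58* (r = 0.997 and 0.996), followed by *Samd9l* for both, and by *Ifit3* and *Cd40*. *Zbp1* was nearest to *Epsti1*, *Oas3* and *Syk*, and *Trex1* to *Parp12*, *Dtx3l* and *Parp9*, with r from 0.995 to 0.996.

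For *Ifih1* the nearest were *Iqsec2* (r = 0.973), *Sp140* (r = 0.97) and *Sp110* (r = 0.967). *Iqsec2* held 34.4 to 45.9 CPM in young LPS and 18.0 to 23.6 CPM in aged LPS libraries, a difference of -1.05 (SE 0.09, edgeR, adjusted p = 2.54e-08). *Sp140*, a nuclear body protein gene, held 25.4 to 45.7 CPM in young LPS and 4.28 to 12.0 CPM in aged LPS libraries, a difference of -2.40 (SE 0.20, edgeR, adjusted p = 2.6e-08). *Sp110*, of the same family, held 18.6 to 35.6 and 1.90 to 8.00 CPM, a difference of -2.76 (SE 0.25, edgeR, adjusted p = 6.51e-08). *Sp140* and *Sp110* belong to a gene cluster with closely similar copies, so their counts are uncertain. Their fitted differences lay between those of *Ddx58* and *Ifih1* and that of *Iqsec2* was smaller than either, and for none of the 3 genes did the ranges overlap.

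The remaining sensor genes resembled genes of other patterns. *Mavs* was nearest to *Abca2*, *Rassf2* and *Xpr1* (r from 0.973 to 0.982), and *Cgas* to *Fam98b*, *G3bp1* and *Nol10* (r from 0.939 to 0.945). *Tmem173* resembled *Sh3bp1* and *Cd33* (r = 0.934 and 0.932). *Aim2* had the weakest likeness, with *Mb21d2* at r = 0.885, *Capn10* at 0.867 and *Lmo2* at 0.864.

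Around the sensors, 80 further genes in 6 pathway lists, also chosen with earlier results known, were examined, of which 73 were tested. Under LPS 41 of the 73 were lower in aged cells and 7 were higher, beside 15% and 14% of all tested genes, and these shares apply to each list below. In untreated cells 12 were lower and 1 was higher, beside 7.81% and 3.71%. LPS raised 48 and lowered 16 in young cells, beside 31.2% and 33.5%, and raised 42 and lowered 11 in aged cells, beside 27.5% and 26.9%. In the test of the response of aged minus that of young cells, 16 were called lower and 1 was called higher, beside 2.27% and 4.12%.

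Of the regulators of RIG-I-like receptors, 8 of 11 tested were lower in aged than in young cells under LPS and none was higher, with a median difference of -0.36. *Ddx60*, a helicase gene, led with 3.28 to 5.23 CPM in young LPS and 0.155 to 1.52 CPM in aged LPS libraries, a difference of -2.58 (SE 0.37, edgeR, adjusted p = 3.86e-05). It had only 2 to 22 reads in aged LPS libraries and passed the filter through the young LPS libraries. Only a lower aged level could therefore be called for *Ddx60*. *Rnf135*, which encodes the ubiquitin ligase Riplet that acts on RIG-I, differed by -0.84 (SE 0.13, edgeR, adjusted p = 4.04e-05). *Tnfaip3*, which encodes the NF-kB inhibitor A20, differed by -0.72 under LPS and by -0.62 untreated (edgeR, adjusted p = 3.86e-06 and 0.00221), and was the only gene of this list called in untreated cells. *Trim25*, another RIG-I ubiquitin ligase, rose by 1.62 in young and 1.31 in aged cells (edgeR, adjusted p = 1.75e-15 and 1.05e-13). The response to LPS was smaller in aged cells for 4 of 11, among them *Rnf135* (-0.83), *March5* (-0.53) and *Zc3hav1* (-0.33), with edgeR adjusted p of 0.00795, 0.00816 and 0.00181.

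Of the adaptors, kinases and transcription factors shared by MAVS and STING, 10 of 16 were lower in aged cells under LPS and 1 was higher, with a median difference of -0.29. *Irf7*, the interferon regulatory factor that amplifies interferon production, held 135 to 271 CPM in young LPS and 67.1 to 158 CPM in aged LPS libraries, which overlapped, and differed by -1.15 (SE 0.21, edgeR, adjusted p = 0.00023). It was also lower in untreated aged cells, at -1.89 (SE 0.56, edgeR, adjusted p = 0.0308), and it rose by 6.39 in young and 7.13 in aged cells with LPS. *Irf5* and *Azi2*, an adaptor of the kinase TBK1, differed by -0.62 and -0.47 under LPS (edgeR, adjusted p = 1.42e-05 and 5.75e-06). *Ikbke*, a kinase of the interferon pathway, rose by 2.76 in young and 2.93 in aged cells, and *Nfkb1* and *Ikbke* were lower in untreated aged cells, at -0.23 and -0.45 (edgeR, adjusted p = 0.0175 and 0.00906).

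Of the other DNA sensors and the regulators of cGAS and STING, 2 of 17 were lower and 6 were higher in aged cells under LPS, with a median difference of 0.08, and the share of lower genes was near that of all tested genes (15%). The lower ones were *Ifi204*, an interferon-inducible DNA-binding protein gene, and *Trim56*, a ubiquitin ligase gene. *Ifi204* held 221 to 337 CPM in young LPS and 78.4 to 176 CPM in aged LPS libraries, a difference of -1.39 (SE 0.17, edgeR, adjusted p = 3.25e-06). *Trim56* differed by -0.85 (SE 0.12, edgeR, adjusted p = 1.89e-05). *Prkdc*, the catalytic subunit of DNA-dependent protein kinase, was higher at 0.26 (edgeR, adjusted p = 0.0131), with 35.6 to 40.3 CPM in aged LPS against 29.5 to 34.1 CPM in young LPS libraries, and its decline with LPS was smaller in aged cells (0.46, edgeR, adjusted p = 0.00879).

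Of the enzymes that degrade, edit or limit nucleic acid, 6 of 12 were lower in aged cells under LPS and none was higher, with a median difference of -0.30. *Samhd1*, which hydrolyses deoxynucleotides, held 497 to 691 CPM in young LPS and 301.8 to 452 CPM in aged LPS libraries, a difference of -0.80 (SE 0.09, edgeR, adjusted p = 1.05e-06). *Adar*, which edits adenosine in double-stranded RNA, differed by -0.53 (edgeR, adjusted p = 1.72e-06). *Rnaset2a*, an acid RNase gene with a near-identical copy that makes its counts uncertain, differed by -0.57 (edgeR, adjusted p = 0.023). The responses of *Samhd1*, *Adar* and *Pnpt1*, a mitochondrial RNA-degrading enzyme, were smaller in aged cells (differences of -0.66, -0.48 and -0.41, edgeR, adjusted p = 0.00262, 0.00202 and 0.0138).

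Of the inflammasome and necroptosis partners of AIM2 and ZBP1, 6 of 8 were lower in aged cells under LPS and none was higher, with a median difference of -0.66. *Il18*, a cytokine matured by inflammasomes, held 5.00 to 9.12 CPM in young LPS and 1.63 to 3.38 CPM in aged LPS libraries, a difference of -1.47 (SE 0.20, edgeR, adjusted p = 9.61e-06). *Gsdmd*, the pore-forming gasdermin, held 71.5 to 96.2 and 43.2 to 54.5 CPM, a difference of -0.86 (SE 0.08, edgeR, adjusted p = 6.51e-08), and *Casp4* differed by -0.74 (edgeR, adjusted p = 2.63e-05). *Casp4* and *Gsdmd* were also the genes of this list that were lower in untreated aged cells, at -0.79 and -0.36 (edgeR, adjusted p = 0.00363 and 0.00435). *Pycard*, the adaptor between AIM2 and caspase-1, had no reads in any library, and *Ripk3*, a necroptosis kinase, had at most 2 reads in a library; both were named after their values were seen.

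Of the interferon axis, all 9 tested genes were lower in aged cells under LPS, with a median difference of -0.54. *Stat2*, a factor of the interferon-stimulated gene complex, held 105 to 167 CPM in young LPS and 32.2 to 93.7 CPM in aged LPS libraries, a difference of -1.34 (SE 0.19, edgeR, adjusted p = 1.68e-05), and its rise was smaller in aged cells (-1.23, edgeR, adjusted p = 0.0155). *Usp18* and *Socs1*, which restrain interferon signalling, differed by -1.004 and -0.98 (edgeR, adjusted p = 0.00255 and 0.00196), with overlapping ranges. The receptor gene *Ifnar1* and the kinase gene *Tyk2* were lower in untreated aged cells, at -0.28 and -0.34 (edgeR, adjusted p = 0.00243 and 0.0195). *Ifnb1*, interferon beta itself, was too low to be tested and was named after its values were seen: it had 5, 7, 2, 1 and 5 reads in young LPS replicates 1 to 5, 2, 0, 4, 2 and 2 in aged LPS replicates 1 to 5, and none in untreated libraries.

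**Figure D5:**
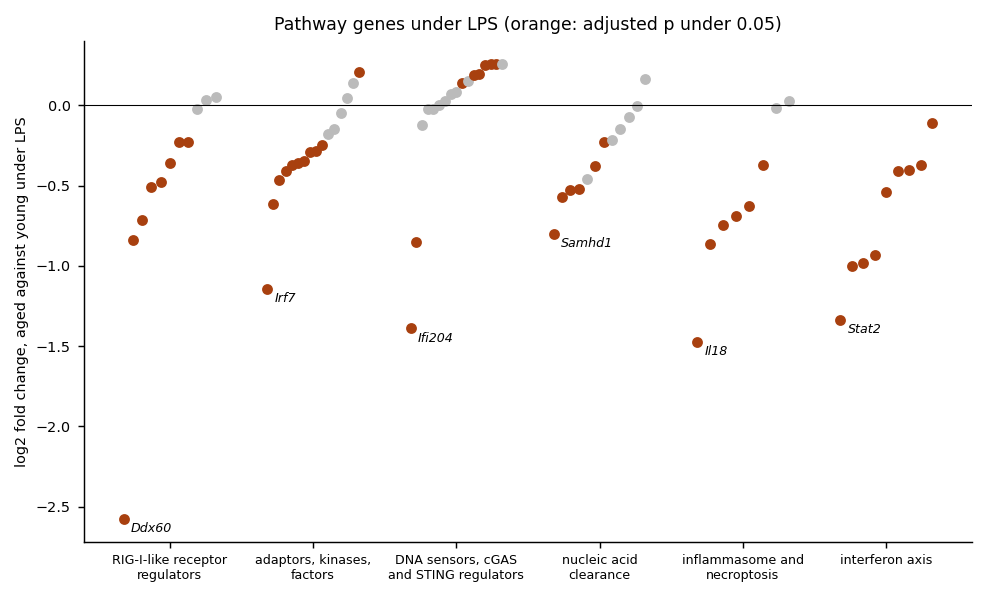
Log2 fold change of aged against young cells under LPS (vertical) for the 73 tested genes of the 6 pathway lists (horizontal), 1 point per gene sorted within its list, with orange for an adjusted p under 0.05 and the lowest gene of each list named. All 9 genes of the interferon axis lie below 0 and are called, *Ddx60* is the lowest point at -2.58, and the DNA sensor and cGAS and STING regulator list holds 6 of the 7 called points above 0.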

How the data were processed

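RNA sequencing of 20 BV-2 cultures was analysed. The authors prepared stranded mRNA libraries, aligned reads to GRCm38 with STAR 2.6.1d, counted them per gene with featureCounts 1.5.1 and deposited raw counts per Ensembl gene; FastQC 0.11.8 and DESeq2 are also in the submitters' processing notes. The settings for strand and overlapping genes are not given in the sources used here. Groups came from the labels. GENCODE symbols of GRCm38 matched 55227 of 55487 identifiers. Genes were filtered with filterByExpr, scaled by the trimmed mean of M values and fitted over all 20 libraries with edgeR 4.0.16 (R 4.3.3), by the quasi-likelihood test with Benjamini-Hochberg adjustment at 0.05, for 5 contrasts. Log2 CPM used a prior count of 2. A count of 3 was the floor, over the group for folds and per library for levels; counting intervals were exact (95%). Permutation tests were exact and exchanged libraries freely between groups, without regard to batch.

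The members and lists were chosen with earlier results of these data known. The text names all 9 members in every comparison, up to 3 called genes per list and comparison with the largest change, and the 3 genes most like each member (mean log2 CPM of 1 or more), of which 1 is not reported here. Libraries with the same replicate number were taken as a batch and so as paired. Their deviations from the group means correlated with r from -0.21 to 0.39 (mean 0.15 over 30 pairs). Mean r was 0.26 for aged untreated with aged LPS and 0.28 for young untreated with young LPS. It was lower between ages, at 0.11 for young with aged untreated and 0.042 for young LPS with aged LPS. Pairing of aged with young libraries was therefore weak. No 2 libraries of a group agreed within sampling noise (chi-square per degree of freedom at least 2.42 over 40 pairs). On data simulated for aged against young untreated cells, with 200 of 12799 genes changed 2-fold, edgeR recovered 184 with 14 false calls, and DESeq2 1.42.0 recovered 187 with 25. Simulated levels were means over all 20 libraries, LPS included. The recovery therefore does not describe genes that are low without LPS, such as *Ddx58* and *Ifih1*. Alternatives were DESeq2, the batch as a block, other scalings, filters and thresholds, and leaving out libraries.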

Additional observations from a re-analysis of the deposited data

Results flagged for a closer look

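Of 33 groups of 5 libraries with a sensor gene above the floor, 3 held a library whose gap to the next, as a share of the range of log2 CPM, exceeded Dixon's 95% critical value of 0.71; about 1 in 20 groups does so by chance. Replicate 3 was the highest aged LPS library for *Dhx58* (share 0.809, 75.9 CPM) and for *Tmem173* (share 0.887, 44.4 CPM). Replicate 1 was the lowest young untreated library for *Cgas* (share 0.796, 41.0 CPM). The response of *Trex1* to LPS differed between aged and young cells in the test of the difference itself, at -0.81 on the log2 scale (edgeR, adjusted p = 0.017).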

How the results depend on the processing

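Of 1518 fitted values of sensor genes under alternatives, 1461 kept their direction and their side of the threshold, 22 lost a call, 14 gained one and 21 changed sign, all 21 in differences that did not pass the test. For the named pathway genes, 2621 of 2705 values kept theirs, 84 lost a call and none changed sign. With library sizes alone, aged against young under LPS came to 0.0700 for *Cgas* and 0.0564 for *Aim2*. Leaving out replicates or libraries, that difference ranged from -0.0688 to 0.12 for *Cgas* and from -0.0674 to 0.037 for *Aim2*, the untreated difference of *Cgas* from -0.00067 to 0.0795, and the difference in response from -0.33 to 0.41 for *Ddx58*, -0.59 to 0.11 for *Dhx58*, -0.13 to 0.10 for *Cgas* and -0.0323 to 0.16 for *Tmem173*. At an adjusted p under 0.01, 0 sensor genes were called in untreated cells and 0 in the response; leaving out replicates or libraries gave 0 to 4 and 0 to 1. The replicate block (batch) gave 3 calls in untreated cells, with *Dhx58* added, and changed no other call of a sensor gene. Over all genes, the stricter threshold gave 622, 2333 and 328 calls in place of 1475, 3717 and 818 (aged against young untreated, under LPS, and the response), and DESeq2 with the block gave 2254 and 1362 for the first and last. Leaving out replicate 2 gave 548, 2156 and 189, and leaving out replicate 4 or 5 gave 532 or 410 for the response. Untreated calls numbered 977, 954 and 981 without young untreated replicate 2 or 3 or aged untreated replicate 4. The cause was not tested. Library sizes alone moved the share of higher calls from 64.4% to 81.3% for the response and from 32.2% to 42.2% in untreated cells. With only the groups compared, *Ifih1* (aged untreated with young untreated or aged LPS) and *Zbp1* (untreated) missed the filter and gave no value. Depth limits both genes in untreated cells.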
